A study of Mus musculus with 24 samples.

Results

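The response of mouse prostate organoids to removal of dihydrotestosterone (DHT), the most potent natural androgen, was compared between organoids with an altered Brca1 genotype and wild-type (WT) organoids. The quantity of interest was a difference of differences for each gene. The log2 change on withdrawal, averaged over the organoids labelled Brca1+/- (HET) and Brca1-/- (KO), was set against the log2 change in WT organoids. This used 18 of the 24 libraries of the series, 12 from altered and 6 from WT organoids, and the remaining libraries, from prostate tissue, were not used. Of 24477 genes with any read in the organoids, 15415 were expressed highly enough to be tested. A positive difference means that a gene rose more, or fell less, in altered than in WT organoids.

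The 6 groups held 3 libraries each, namely WT, HET and KO organoids kept with DHT and the same genotypes kept without it. All came from the anterior prostate lobes of 3-month-old mice. Dissociated cells were embedded in Matrigel, a basement membrane gel, in a medium shared by all groups. It contained the growth factors and pathway modulators EGF, Noggin, R-Spondin, A83-01 and Y27632 on a base of advanced DMEM/F12 with N-acetylcysteine and B27. How the Brca1 alleles were made, which part of the gene was removed and how long DHT was withheld are not given in the sources used here. The comparison addresses whether loss of 1 or both copies of Brca1 bears on how prostate epithelium answers androgen deprivation. The number of animals or organoid lines behind each genotype is not given, so effects of genotype and of line cannot be told apart.

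DHT is a potent androgen that switches genes on or off in prostate luminal cells. Removing androgen lowers the products that it drives, among them Fkbp5, and raises genes that it holds down. Brca1 is best known for repairing DNA breaks by homologous recombination. Prostate organoids contain luminal cells, which line the gland and secrete its products, and basal cells, which can replenish them.

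Sequencing depth ran from 11965815 to 58445041 estimated reads. The 3 smallest libraries were WT with DHT replicate 1 (11965815), KO without DHT replicate 1 (25233980) and HET without DHT replicate 1 (29409564). Transcripts of the mitochondrial genome took 9.43% of reads in that HET library and 10% in that KO library, against 2.16% to 5.06% in the other 16. In WT with DHT replicate 1 the gene Lars2 reached 378000 counts-per-million (CPM) against at most 9400 CPM elsewhere. Markers of luminal and basal epithelium were abundant, with summed levels of 10400 to 11900 CPM and 8380 to 11500 CPM. Summed stromal markers stayed between 9.79 and 44.1 CPM, endothelial markers between 2.89 and 13.1 CPM, leukocyte markers between 43.3 and 109 CPM, neuroendocrine markers between 2.02 and 3.26 CPM and seminal vesicle markers at or below 0.113 CPM. Brca1 RNA did not follow the labels. With DHT the WT mean was 13.7 CPM, the HET-labelled mean 16.9 CPM and the KO-labelled mean 10.9 CPM, so directions below rest on the labels. Its own withdrawal response differed by 0.19 on the log2 scale (95% interval -0.14 to 0.53, edgeR adjusted p = 1).

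No gene passed the test for a different withdrawal response. With edgeR (quasi-likelihood test, Benjamini-Hochberg adjustment over all genes), 0 of 15415 genes (0%) were called in the averaged difference. The difference for HET-labelled organoids alone and that for KO-labelled organoids alone also gave 0 calls. At an unadjusted p under 0.05 there were 543 genes (3.52%), of which 281 had a positive difference (1.82%) and 262 a negative one (1.7%). The HET-labelled difference alone had 433 such genes (2.81%) and the KO-labelled difference alone 418 (2.71%). Each of these shares lay below the share of 0.05 that this cut-off would select with no difference in any gene. On the same libraries limma called 0 genes and DESeq2 called 13 (0.0843%), of which 7 were positive and 6 negative. The withdrawal response itself was larger than the spread between replicates for many genes. Averaged over the 3 genotypes with equal weight, 763 genes changed (4.95%), with 394 rising (2.56%) and 369 falling (2.39%). The response taken over HET-labelled and KO-labelled organoids, from 12 libraries, held 435 changed genes (2.82%), and that of WT organoids, from 6 libraries, held 200 (1.3%). These counts rest on unlike numbers of libraries, so they do not show which response was broader.

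**Figure D1:**
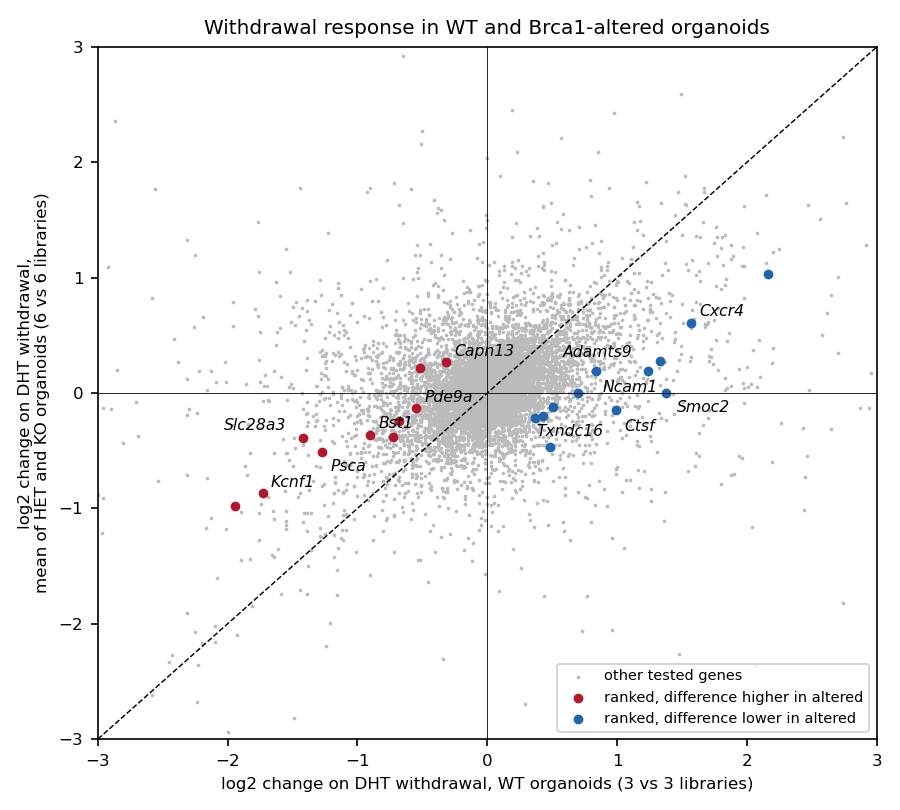
Each point is a gene, with its log2 change on DHT withdrawal in WT organoids on the x axis and the mean of its changes in HET-labelled and KO-labelled organoids on the y axis. Coloured points are the genes ranked highest by p for the difference, red for positive and blue for negative differences, and the dashed line marks equal responses. The figure draws 15303 genes, and 112 lie beyond the axes, with Creb5 and Tmem38b among them. Most coloured points lie closer to the horizontal zero line than to the dashed line. Their changes are smaller in altered than in WT organoids, which the choice by p of the difference favours.

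The genes nearest to a different response were described as a ranking, without being called. The ranking took the 12 genes with the smallest unadjusted p in each direction among those averaging at least 5 CPM in a group. Since they were picked for the difference, their changes within each genotype are a description of what the difference is made of.

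Smoc2, a secreted calcium-binding protein of the extracellular matrix, ranked first of all genes. It lies on chromosome 17, positions 14279506 to 14404790 of the mouse build GRCm38. In WT organoids it stood at 4.95, 5.38 and 6.51 CPM with DHT and at 17.3, 12.6 and 14.3 CPM without. HET-labelled organoids held 2.34, 2.38 and 2.09 CPM with DHT and 2.0, 2.35 and 2.66 CPM without. KO-labelled organoids held 3.00, 3.81 and 3.13 CPM with DHT and 2.89, 3.15 and 3.50 CPM without. Only in WT did the libraries of the 2 media separate, and every altered library lay below every WT library. On the log2 scale the withdrawal response of WT was 1.38, that of HET-labelled organoids 0.05 and that of KO-labelled organoids -0.05. The averaged difference was -1.38 (SE 0.197, 95% interval -1.80 to -0.96), with an unadjusted p of 3.82e-06 and an edgeR adjusted p of 0.0588. DESeq2 gave -1.35 with an adjusted p of 3.03e-06. When single libraries were left out, the edgeR adjusted p ran from 0.0533 to 0.405 and the difference from -1.51 to -1.24.

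Adamts9 and Ncam1 ranked next. Adamts9 encodes a secreted metalloprotease that cleaves matrix proteoglycans and lies on chromosome 6, 92772699 to 92943492. Its level in WT was 38.9, 34.7 and 30.7 CPM with DHT and 61.1, 60.0 and 64.8 CPM without. HET-labelled organoids had 27.9, 29.7 and 26.5 CPM against 31.5, 32.5 and 32.3 CPM, and in KO-labelled organoids 41.8, 41.1 and 36.4 CPM against 47.1, 43.4 and 45.6 CPM. The media separated in all 3 genotypes, but the log2 step was 0.84 in WT and 0.19 in each altered genotype. The difference was -0.65 (SE 0.112, 95% interval -0.88 to -0.41, edgeR adjusted p = 0.254, DESeq2 adjusted p = 3.73e-05). With DHT the mean of HET and KO differed from WT in Adamts9 by -0.05 on the log2 scale, and without it by -0.70. The value with DHT averages opposite gaps. HET-labelled libraries all lay below WT, and the KO-labelled mean was above it (39.7 against 34.8 CPM).

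Ncam1, the neural cell adhesion molecule (chromosome 9, 49502136 to 49798925), showed the same order. WT organoids held 6.64, 6.03 and 6.47 CPM with DHT and 14.4, 14.9 and 15.8 CPM without. HET-labelled organoids held 1.99, 2.86 and 2.48 CPM with DHT and 1.92, 3.16 and 2.65 CPM without. KO-labelled organoids held 8.31, 9.14 and 8.43 CPM with DHT and 12.1, 10.7 and 9.03 CPM without. The media overlapped in both altered genotypes, and the HET-labelled organoids were far below the other 2 genotypes in either medium. The difference was -1.05 (SE 0.205, 95% interval -1.48 to -0.61, edgeR adjusted p = 0.602, DESeq2 adjusted p = 0.000507).

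In several further genes WT organoids started low and moved up toward the level that altered organoids already had with DHT. Cxcr4, the receptor of the chemokine Cxcl12, was at 1.46, 2.19 and 2.09 CPM in WT with DHT and at 4.65, 6.55 and 6.48 CPM without. HET-labelled organoids had 5.15, 5.25 and 5.4 CPM with DHT and 8.13, 9.32 and 9.63 CPM without. KO-labelled organoids had 5.65, 5.57 and 4.63 CPM against 6.49, 7.95 and 6.97 CPM. The media separated in every genotype, with log2 changes of 1.57, 0.78 and 0.44. The difference was -0.96 (SE 0.203, 95% interval -1.39 to -0.53, edgeR adjusted p = 0.68, DESeq2 adjusted p = 0.0276). The altered organoids exceeded WT by 1.41 on the log2 scale with DHT and by 0.45 without it.

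Ctsf, the lysosomal protease cathepsin F, stood in WT at 1.80, 1.84 and 2.28 CPM with DHT and at 4.24, 4.09 and 3.62 CPM without. The altered organoids were above WT with DHT, at 5.27, 6.77 and 5.28 CPM in HET-labelled and 7.48, 10.1 and 8.93 CPM in KO-labelled organoids. Without DHT they held 3.56, 4.88 and 5.52 CPM and 6.86, 9.24 and 10.3 CPM, overlapping the values with DHT. The difference was -1.15 (SE 0.244, 95% interval -1.67 to -0.63, edgeR adjusted p = 0.68).

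Cxcl14, an epithelial chemokine, rose in WT from a mean of 1.52 CPM (SD 0.350, n = 3) to 4.01 CPM (SD 0.645, n = 3), by a log2 change of 1.33. In HET-labelled and KO-labelled organoids the changes were 0.38 and 0.18, with overlapping media in both. Its difference was -1.05 (SE 0.245, 95% interval -1.58 to -0.53, edgeR adjusted p = 0.837). Scara3, a scavenger receptor, separated by medium in all 3 genotypes, with log2 changes of 2.16, 1.02 and 1.04 in the order WT, HET and KO. Its level in WT with DHT was only 1.58, 1.07 and 0.851 CPM, so this change starts from few reads. Serpina3h, a serine protease inhibitor, belongs to a cluster of near-identical genes among which reads can be split, and its difference of -0.70 is uncertain for that reason.

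Pfkfb3, whose product stimulates glycolysis, had changes of opposite sign in WT and altered organoids. In WT it was 75.8, 112 and 94.6 CPM with DHT and 130, 142 and 122 CPM without, a log2 change of 0.48 that did not pass the test (edgeR adjusted p = 0.405). In HET-labelled organoids it was 151, 206 and 195 CPM with DHT and 149, 135 and 122 CPM without, and in KO-labelled organoids 95.7, 152 and 109 CPM against 76.0, 102 and 76.6 CPM. The media separated upward in WT and downward in HET-labelled organoids, and overlapped in KO-labelled organoids. The HET-labelled and KO-labelled changes, -0.45 and -0.48, did not pass the test either (edgeR adjusted p = 0.515 and 0.498). The difference was -0.94 (SE 0.227, 95% interval -1.43 to -0.46, edgeR adjusted p = 0.947). Ppp1r3b, which brings a phosphatase to glycogen, showed log2 changes of 0.37, -0.19 and -0.26 in the same order of genotypes. The positional homeobox gene Hoxd10 showed 0.43, -0.20 and -0.19, and Txndc16, a thioredoxin-domain protein, showed 0.51, 0.00 and -0.25. Among the changes of Ppp1r3b, Hoxd10 and Txndc16, only that of Txndc16 in WT passed the test (edgeR adjusted p = 0.0419).

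Slc28a3, a transporter that concentrates nucleosides in cells, led the positive differences. It lies on chromosome 13, 58545399 to 58610877. In WT organoids it held 119, 73.1 and 91.4 CPM with DHT and 39.9, 30.4 and 35.7 CPM without. HET-labelled organoids held 50.5, 37.3 and 39.9 CPM with DHT and 36.0, 31.5 and 36.5 CPM without, and KO-labelled organoids 49.5, 41.2 and 47.2 CPM against 39.9, 28.2 and 31.3 CPM. The media separated in every genotype. All altered libraries with DHT lay below all WT libraries with DHT, whereas without DHT the genotypes overlapped. The log2 changes were -1.42, -0.30 and -0.47, and the difference was 1.03 (SE 0.216, 95% interval 0.57 to 1.49, edgeR adjusted p = 0.68, DESeq2 adjusted p = 0.0177).

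Psca, a surface antigen of prostate luminal progenitor cells, lies on chromosome 15, 74714839 to 74717069. It stood in WT at 199, 285 and 289 CPM with DHT and at 116, 111 and 93.9 CPM without. HET-labelled organoids had 269, 311 and 264 CPM with DHT and 224, 184 and 187 CPM without. KO-labelled organoids had 174, 194 and 192 CPM with DHT and 129, 128 and 136 CPM without. The media separated in every genotype, and without DHT every altered library exceeded every WT library. The log2 changes were -1.27, -0.50 and -0.51. The difference was 0.76 (SE 0.165, 95% interval 0.41 to 1.11, edgeR adjusted p = 0.68, DESeq2 adjusted p = 0.0159).

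Kcnf1, a silent subunit of voltage-gated potassium channels, fell in every genotype. In WT it held 22.1, 23.6 and 26.4 CPM with DHT and 7.49, 7.34 and 6.87 CPM without. The HET-labelled values were 27.0, 23.0 and 22.2 CPM against 11.4, 12.3 and 15.7 CPM, and in KO-labelled organoids 18.1, 19.0 and 21.0 CPM against 8.01, 10.4 and 13.1 CPM. With DHT the WT and HET-labelled libraries overlapped and the KO-labelled ones lay below both, and without it the altered libraries lay above the WT libraries. The log2 changes were -1.73, -0.87 and -0.87, with a difference of 0.86 (SE 0.195, 95% interval 0.45 to 1.28, edgeR adjusted p = 0.737, DESeq2 adjusted p = 0.0191).

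Plac8 is a small cysteine-rich protein. In WT it held 19.6, 25.7 and 28.4 CPM with DHT and 6.77, 6.45 and 6.05 CPM without. In HET-labelled organoids the values were 44.0, 45.3 and 37.0 CPM against 12.2, 22.5 and 23.6 CPM, and in KO-labelled organoids 37.3, 40.6 and 48.1 CPM against 18.2, 26.6 and 24.4 CPM. The lowest altered libraries without DHT, at 12.2 and 18.2 CPM, were the 2 with the high mitochondrial share. The difference was 0.96 (SE 0.264, 95% interval 0.40 to 1.52, edgeR adjusted p = 1). Without the 3 smallest libraries it was 1.28 and passed (edgeR adjusted p = 0.0134).

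Among the other positive differences, Bst1, a surface enzyme of NAD metabolism, kept a wide genotype gap in both media. Its mean in WT was 7.94 CPM (SD 0.578, n = 3) with DHT and 4.23 CPM (SD 0.445, n = 3) without. HET-labelled organoids averaged 33.3 and 24.2 CPM, and KO-labelled organoids 41.8 and 34.8 CPM. The log2 changes were -0.90, -0.46 and -0.26 (difference 0.53, 95% interval 0.28 to 0.78, edgeR adjusted p = 0.682). For Rab27a, a small GTPase that guides secretory vesicles, the log2 changes were -0.73, -0.36 and -0.40, and for Mall, a membrane raft protein, -0.68, -0.20 and -0.27. Pde9a, a cyclic GMP phosphodiesterase, showed -0.55, -0.02 and -0.23. Capn13, a calpain protease, showed -0.32, 0.27 and 0.28, and S100a7a, a calcium-binding protein of keratinising epithelium, -0.52, 0.28 and 0.16. In the last 2 the WT change did not pass the test.

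Creb5 and Tmem38b entered the positive ranking through 1 library. In WT with DHT replicate 1 they reached 2890 and 2720 CPM, while no other library exceeded 32.2 and 30.2 CPM. Without that library their differences were 0.15 and -0.05 instead of 5.71 and 5.34. The other 22 ranked genes stayed within 1.5 times of their value without it.

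**Figure D2:**
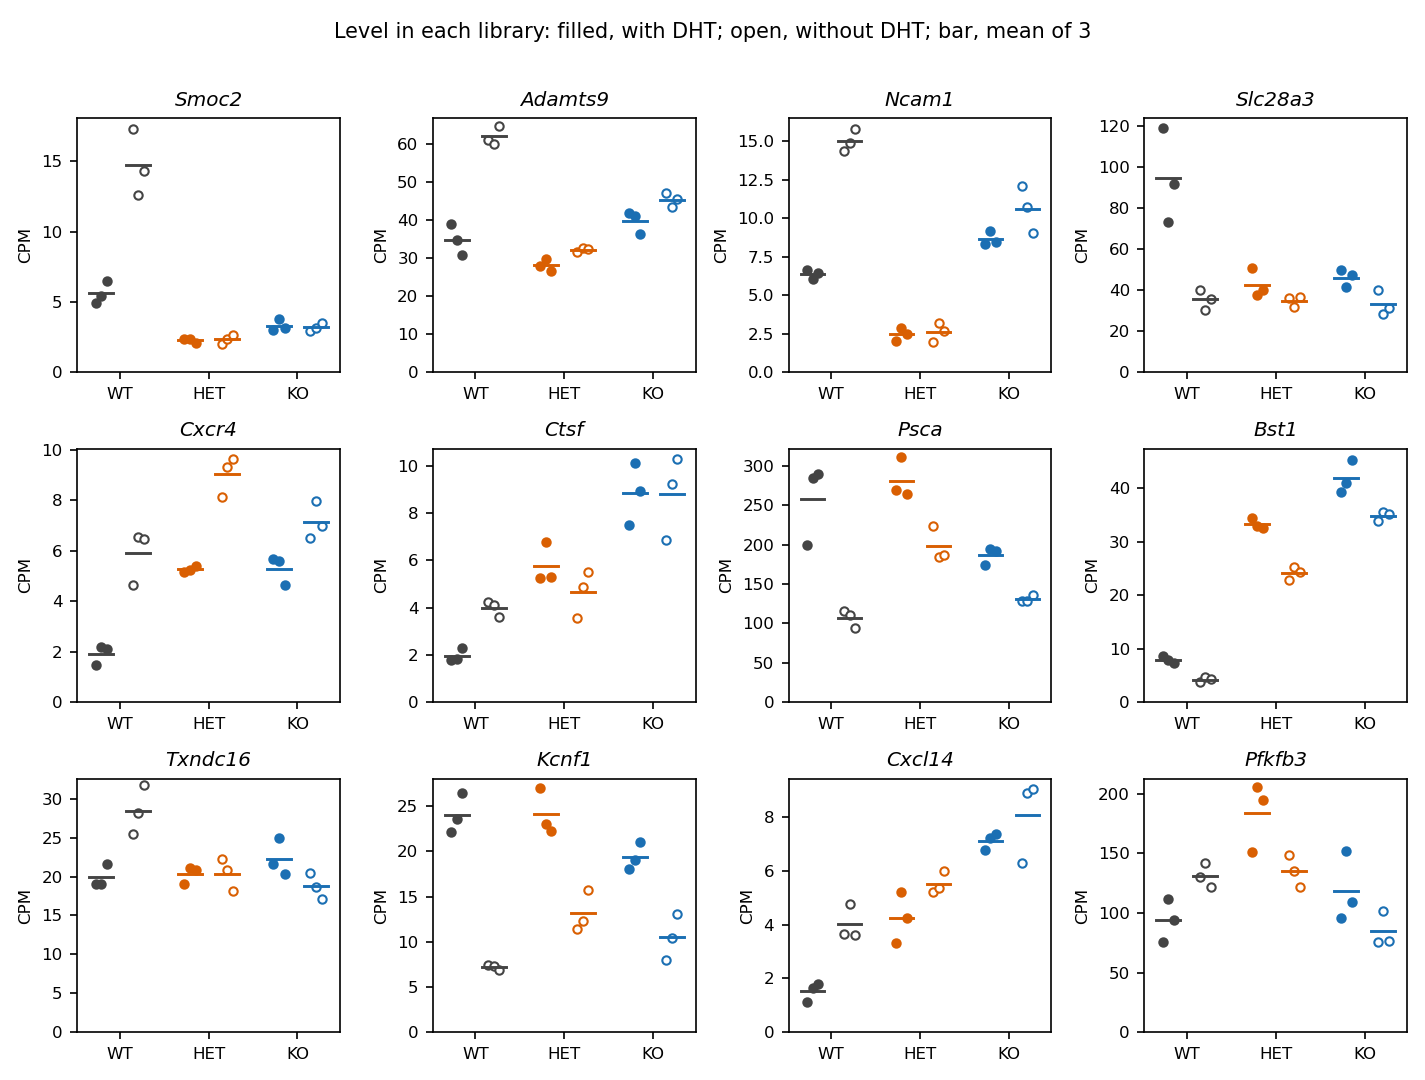
Level in CPM of the 12 ranked genes with the smallest p, one panel per gene, with filled circles for libraries with DHT, open circles for libraries without DHT and bars for the mean of 3. Smoc2 reaches 12.6 to 17.3 CPM only in WT without DHT, and Slc28a3 lies at or above 73.1 CPM only in WT with DHT.

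For all 24 ranked genes the HET-labelled and the KO-labelled difference had the same sign, which comparisons against the same WT libraries favour. In 14 genes the altered organoids moved the same way as WT but less, and in 10 they moved the opposite way, counting changes of any size. The gap between WT and the mean of HET and KO, at any size, widened on withdrawal in 7 genes, narrowed in 9 and changed side in 8. A gap near 0, such as -0.01 for Pde9a with DHT, counts as a side. Ncam1 counts as widened, though KO-labelled organoids lay above WT with DHT and below it without. Both splits include Creb5 and Tmem38b, and the same splits over all genes tested are not given here. Of the 13 genes that DESeq2 called, Smoc2, Adamts9, Ncam1, Psca, Slc28a3, Kcnf1, Ctsf, Cxcr4, Bst1 and Mall were in this ranking. The others were 1700047I17Rik2, Gm10800 and Hist1h3h, with DESeq2 differences of -35.16, 8.12 and 10.73. They had most libraries at or near 0 CPM, and in edgeR each stood at an adjusted p of 1.

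**Figure D3:**
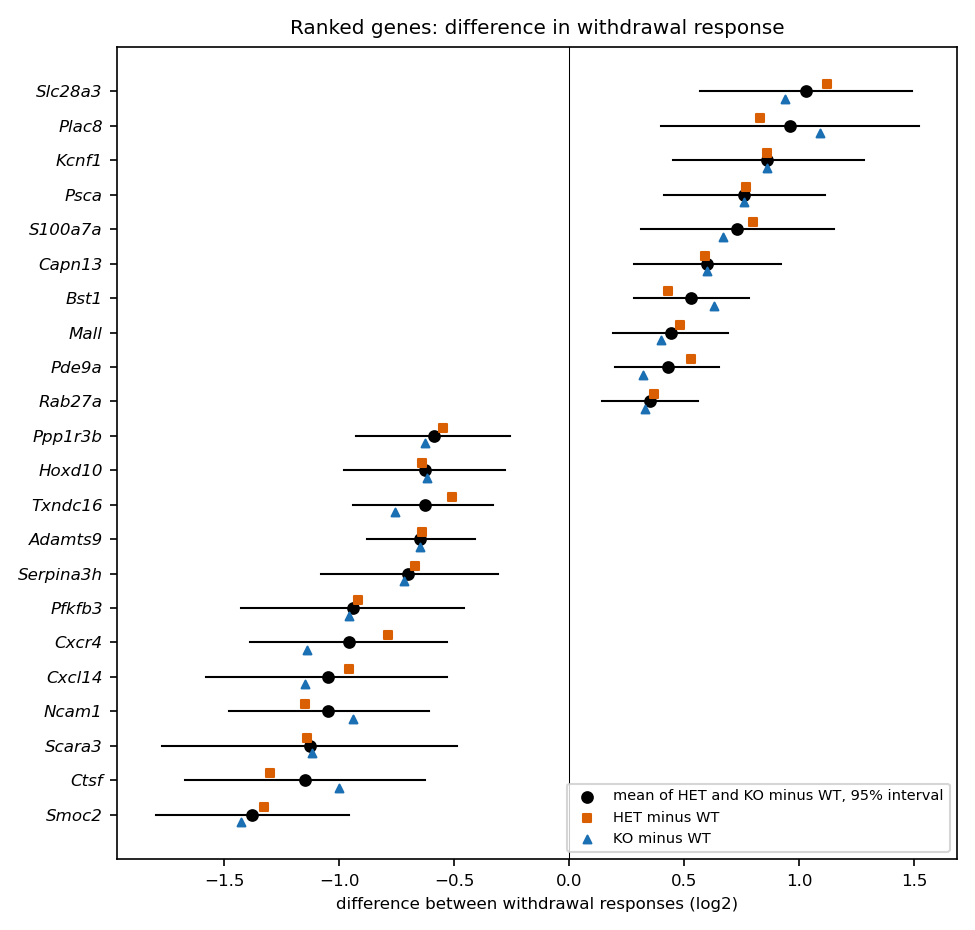
Difference between withdrawal responses (log2, x axis) for the 22 ranked genes that do not rest on 1 library. Black circles with bars give the mean of HET and KO minus WT with its 95% interval, squares HET minus WT and triangles KO minus WT. Squares and triangles fall on the same side of 0 for every gene shown, and no interval reaches 0, as the choice by p entails.

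None of the genes named for the strongest response over the 3 genotypes passed the adjusted test of the difference, though some of their 95% intervals lay on 1 side of 0. Fkbp5, a co-chaperone of steroid receptors, was not among these genes and was named as a list member by p of the difference. In WT it held 55.5, 72.6 and 72.9 CPM with DHT and 18.7, 19.7 and 18.3 CPM without. HET-labelled organoids held 54.7, 65.7 and 51.9 CPM against 18.4, 20.9 and 25.0 CPM, and in KO-labelled organoids 46.5, 51.1 and 47.9 CPM against 14.3, 19.4 and 19.2 CPM. The media separated in every genotype, and the levels without DHT overlapped between genotypes. The difference of 0.39 had a 95% interval of 0.02 to 0.77 and did not pass (edgeR adjusted p = 1).

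The largest falls averaged over the genotypes were those of Aldh1a7, Aldh1a1, Atp12a, Spink5, Zbtb16 and Hvcn1. For Aldh1a1, which makes retinoic acid, the difference between responses was 0.04 (95% interval -0.50 to 0.58), and for its near-identical relative Aldh1a7 it was -0.04 (95% interval -0.77 to 0.69). The counts of these relatives may share reads. The proton pump subunit Atp12a had a difference of 0.18 (95% interval -0.42 to 0.77) and the protease inhibitor Spink5 one of 0.08 (95% interval -0.60 to 0.77). Zbtb16, a transcription factor induced by androgens and glucocorticoids, changed by -1.93, -1.81 and -2.39 in WT, HET and KO. For the proton channel Hvcn1 the changes were -2.31, -2.14 and -1.69. The KO-labelled change was thus the largest of the 3 for Zbtb16 and the smallest for Hvcn1.

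The largest rises were those of Peg10, Aqp4, Thbs2, Rgs4, Gas1 and Rgs5. Peg10, an imprinted gene derived from a retrotransposon, had a difference of -1.37 (95% interval -2.16 to -0.58, edgeR adjusted p = 1), with a WT level with DHT of 0.238 CPM (SD 0.112, n = 3). Gas1, a membrane protein linked to growth arrest, had a difference of -0.47 (95% interval -0.89 to -0.04, edgeR adjusted p = 1). Rgs4 and Rgs5, which shorten G-protein signals, had differences of -0.18 and 0.09, with intervals of -1.0 to 0.63 and -0.97 to 1.15. The water channel Aqp4 had -1.19, but its interval ran from -3.96 to 1.58 and its libraries overlapped between media in both altered genotypes. Its averaged rise of 2.41 passed (edgeR adjusted p = 0.0294), but not without replicate 1 of every group (0.201). Nor did it pass when any 1 of 9 libraries was left out (edgeR adjusted p from 0.0502 to 0.078). These were WT with DHT replicate 2, WT without DHT replicate 1, HET with DHT replicates 1 and 3, HET without DHT replicates 1 and 3, KO with DHT replicates 1 and 2 and KO without DHT replicate 2. Intervals of this width leave differences of over 1 log2 unit undetectable for Aqp4 and Rgs5. Such differences also failed the adjusted test in genes with narrower intervals, such as Smoc2 (-1.38, SE 0.197) and Ncam1 (-1.05, SE 0.205). The 0 calls thus do not show that differences of this size were absent.

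Over the 394 genes that rose in the averaged response, the median rise was 0.61 in WT, 0.52 in HET and 0.46 in KO. Of these genes 39 had a negative difference and 5 a positive one at an unadjusted p under 0.05. Over all genes tested the shares at that p were 1.7% negative and 1.82% positive. The 369 genes that fell had medians of -0.48, -0.44 and -0.44, with 26 positive and 17 negative differences at that p. These lists were picked on the same libraries, so their counts are a description. None of the 763 passed the adjusted test of the difference.

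Gene lists by pathway are described by the median difference and the number of members above 0, beside the same for all genes tested. Over all 15415 genes the median difference was 0.01, and 51.3% lay above 0. At an unadjusted p under 0.05, 1.82% of all genes were positive and 1.7% negative. No member of any of the 24 lists was called in the edgeR test, so members below are given by value.

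The cell cycle list, made of replication and mitosis genes, had a median difference of 0.19, with 35 of 38 members above 0 and 5 at an unadjusted p under 0.05, all positive. The median withdrawal response of the list was -0.09 for WT, 0.09 for HET and 0.10 for KO. The summed level in WT was 1860, 1960 and 1970 CPM with DHT and 1600, 1810 and 1950 CPM without. The HET-labelled sums were 2940, 3030 and 3230 CPM against 2930, 3220 and 3560 CPM, and in KO-labelled organoids 2090, 2090 and 2220 CPM against 1990, 2170 and 2580 CPM, each from lowest to highest. The media overlapped in every genotype. Kif20a, a kinesin of cell division, had a difference of 0.27 (SE 0.0956, unadjusted p = 0.0121, edgeR adjusted p = 1). Birc5, or survivin, had 0.43 and the replication licensing factor Cdc6 had 0.47. Without the 3 smallest libraries the list's median was 0.21, with 31 members above 0.

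Homologous recombination genes, the pathway in which Brca1 acts, had a median difference of 0.12 with 23 of 32 members above 0, and 3 at an unadjusted p under 0.05. Among them were the exonuclease Exo1 (0.47) and the Fanconi protein Fanci (0.46). Exo1 stood in WT at 5.63, 4.26 and 4.83 CPM with DHT and at 4.17, 3.18 and 3.58 CPM without. The HET-labelled values were 7.68, 6.88 and 6.61 CPM against 9.47, 6.32 and 7.27 CPM, and the KO-labelled values 5.33, 4.19 and 4.35 CPM against 5, 4.32 and 4.43 CPM. WT separated by medium, and both altered genotypes overlapped. The difference of Exo1 was 0.26 without the 3 smallest libraries and 0.08 with transcript length offsets. Without the 3 smallest libraries the list's median was 0.08. It was 0.07 without WT with DHT replicate 1 and 0.17 without WT with DHT replicate 3.

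Genes of squamous differentiation and the cornified envelope had a median difference of 0.20 with 19 of 23 above 0. The 5 members at an unadjusted p under 0.05 were Sprr1b (1.04), Krt13 (0.48), Sprr2d (1.00), Sprr1a (0.46) and Krtdap (1.22). Krt13 is a keratin of non-keratinising squamous epithelium, and the Sprr proteins are crosslinked into the envelope. The members below 0 were Lor (-1.12), Krt1 (-0.33), Flg (-0.26) and Krt10 (-0.22), none at an unadjusted p under 0.05. The lean of the list was thus not shared by these envelope and keratin genes. The Sprr genes are near-identical neighbours whose reads can be split, and Sprr1b lay between 1.26 and 6.03 CPM. The median response was -0.10 in WT and 0.14 in each altered genotype. It was 0.37 for the difference without the 3 smallest libraries.

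Type I interferon response genes had a median difference of 0.16 with 29 of 33 above 0, and 1 member, the viral RNA sensor Oas3 (0.48, unadjusted p = 0.0382, edgeR adjusted p = 1), at an unadjusted p under 0.05. Median responses were -0.22 for WT, -0.10 for HET and -0.06 for KO. Oas3 in WT held 66.2, 49.4 and 52.0 CPM with DHT and 45.2, 32.7 and 36.6 CPM without, which did not overlap. In both altered genotypes its media overlapped. The list's median depended on single WT libraries, since it was 0.03 without WT without DHT replicate 2 and 0.32 without WT without DHT replicate 1. Leaving out the 3 smallest libraries gave 0.15, with 22 members above 0.

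Hypoxia and glycolysis genes leaned the other way, with a median difference of -0.20 and 4 of 26 members above 0. Pfkfb3, the angiogenic factor Vegfa (-0.47), Ndrg1 (-0.44), the vasodilator peptide gene Adm (-0.68) and the glucose transporter Slc2a1 (-0.35) were at an unadjusted p under 0.05. Vegfa held 523, 643 and 616 CPM in WT with DHT and 688, 684 and 644 CPM without. HET-labelled organoids held 688, 823 and 799 CPM against 709, 608 and 588 CPM, and KO-labelled organoids 571, 656 and 547 CPM against 513, 466 and 461 CPM. The media separated upward in WT, though only by 643 against 644 CPM, and downward in KO-labelled organoids. Neither change, 0.18 and -0.30 on the log2 scale, passed the test (edgeR adjusted p = 0.87 and 0.442). This list depended on the smallest libraries. Without those 3 its median was -0.01 with 12 of 26 above 0, and with the mitochondrial share as a covariate it was -0.17. It was -0.11 without WT with DHT replicate 1 alone.

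Targets of p53 had a median difference of -0.14 with 5 of 24 members above 0, and -0.20 without the 3 smallest libraries. Leaving out WT without DHT replicate 2 gave -0.09. Btg2, an antiproliferative gene, had -0.48 (unadjusted p = 0.00536, edgeR adjusted p = 1), and the death receptor Fas had -0.60 (unadjusted p = 0.00842, edgeR adjusted p = 1). Fas stood in WT at 5.63, 6.34 and 5.64 CPM with DHT and at 9.35, 6.55 and 9.75 CPM without. In HET-labelled organoids it held 7.19, 7.68 and 7.2 CPM against 6.90, 8.60 and 6.07 CPM, and in KO-labelled organoids 8.81, 10.6 and 10 CPM against 9.13, 10.3 and 8.24 CPM. Only the WT media separated.

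Wnt targets had a median difference of -0.07 with 7 of 15 above 0, or 0.04 without WT with DHT replicate 2. The 3 at an unadjusted p under 0.05, all negative, are inhibitors of Wnt signalling, namely Rnf43 (-0.41), Znrf3 (-0.34) and Apcdd1 (-0.28). Other inhibitors in the list went both ways, namely Nkd2 (1.21), Notum (0.15), Axin2 (0.14) and Wif1 (-0.10). Rnf43 and Znrf3 are ubiquitin ligases that remove Wnt receptors. Rnf43 in WT held 21.3, 24.5 and 21.6 CPM with DHT and 27.3, 31.3 and 27.7 CPM without, while in both altered genotypes its media overlapped. The medium of all groups contained R-Spondin, which acts on Rnf43 and Znrf3, and its part in these values was not tested.

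Androgen response genes had a median difference of 0.01 with 19 of 34 above 0, and the median response was -0.05 in each genotype. Without the 3 smallest libraries the difference was -0.11. Prostate secretory genes had a median difference of -0.07 with 5 of 10 above 0, or 0.13 without WT without DHT replicate 1. Among them Acpp, prostatic acid phosphatase, had -0.45 (unadjusted p = 0.00707, edgeR adjusted p = 1). Basal markers had a median of 0.02 with 12 of 20 above 0, and luminal markers -0.01 with 9 of 18. In these bulk libraries fewer cells of a type and less RNA per cell cannot be told apart. Luminal progenitor genes had a median of 0.11 with 12 of 16 above 0, or 0.33 without the 3 smallest libraries and 0.05 without HET without DHT replicate 3. Psca was among them, as was Clu, the secreted chaperone clusterin, with -0.41.

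For the glucocorticoid receptor Nr3c1 the difference was -0.23 (95% interval -0.63 to 0.17), for the estrogen receptor Esr1 -0.16 (95% interval -0.43 to 0.12) and for the mineralocorticoid receptor Nr3c2 -0.36 (95% interval -0.84 to 0.13), each with an edgeR adjusted p of 1. Esr2 lay at or below 0.674 CPM, where its interval ran from -1.80 to 1.21. The progesterone receptor Pgr was at most 0.108 CPM and was not tested.

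Mitochondrially encoded genes had the highest median difference of the lists with at least 3 tested members, 0.52 with 12 of 13 above 0. Their summed level was highest in the 2 libraries with the high mitochondrial share, and reached 104000 CPM in KO without DHT replicate 1. Without the 3 smallest libraries the median was -0.86 with 0 of 13 above 0, and without KO without DHT replicate 1 alone it was -0.03. Retinoid genes (0.04), MAPK output (0.05), cholesterol synthesis (0.00), the unfolded protein response (-0.04) and mesenchymal matrix genes (-0.09) had medians within 0.10 of the all-gene value. In the stromal marker list 7 of 12 members were tested, with a median of -0.09, which ran from -0.36 without HET without DHT replicate 3 to 0.23 without WT with DHT replicate 3. Dcn, the matrix proteoglycan decorin, had -0.69 (unadjusted p = 0.00933, edgeR adjusted p = 1). Its level lay between 6.36 and 37.9 CPM over the 18 libraries, and the part of stromal RNA in the matrix genes above was not tested. Of 12 leukocyte markers 4 were tested, namely Csf1r (-1.85), Ptprc (-0.60), Cd74 (-0.41) and Cd68 (0.20). Their median of -0.50, with 1 of 4 above 0, was the most negative of the lists, and it lay between -0.89 and -0.13 when WT with DHT replicate 1 or replicate 3 was left out. None of the 4 was at an unadjusted p under 0.05, and their part in the other differences was not tested. The neuroendocrine markers had a median of -0.02 over 4 tested members, and the endothelial markers 0.72 over 2.

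**Figure D4:**
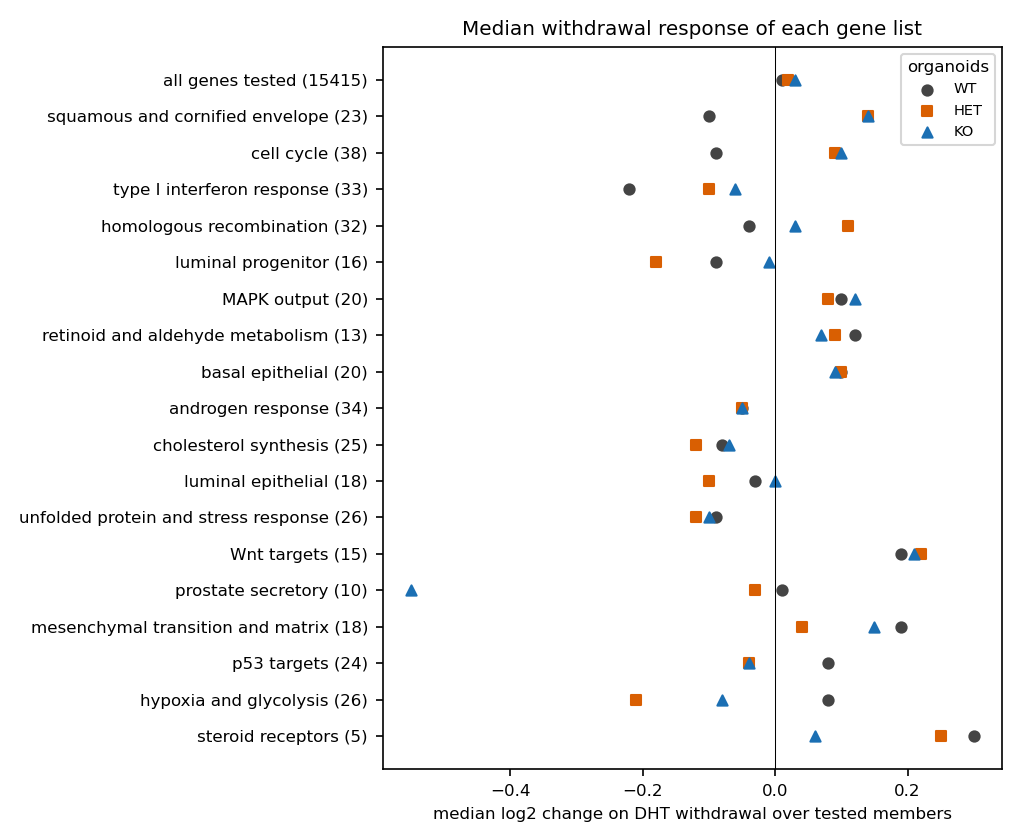
Median log2 change on DHT withdrawal over the tested members of each list, with circles for WT, squares for HET-labelled and triangles for KO-labelled organoids and the number of tested members in brackets. For squamous, cell cycle and homologous recombination genes WT lies below 0 and both altered genotypes above it. For hypoxia, p53 target and prostate secretory genes the reverse holds, though some of these medians lie close to 0.

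**Figure D5:**
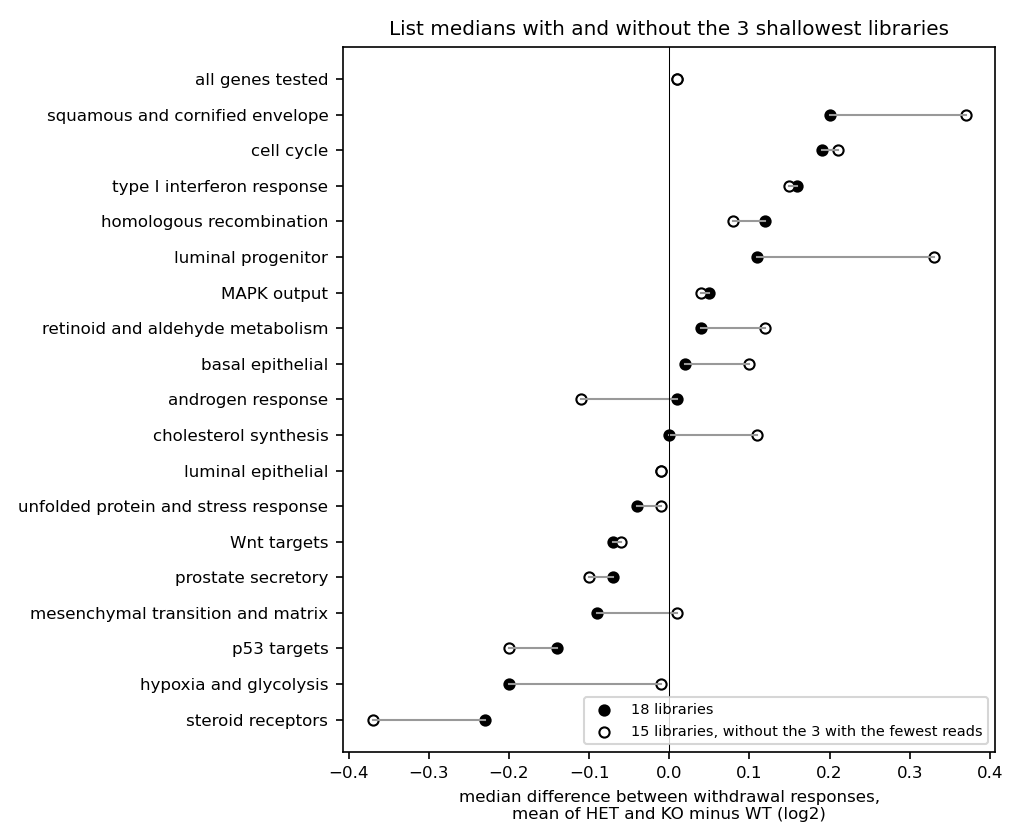
Median difference between withdrawal responses (mean of HET and KO minus WT, log2) for the same lists, with all 18 libraries as filled circles and without the 3 smallest libraries as open circles. Cell cycle genes go from 0.19 to 0.21 and interferon genes from 0.16 to 0.15, with 22 in place of 29 members above 0, hypoxia and glycolysis genes go from -0.20 to -0.01, and luminal progenitor genes from 0.11 to 0.33.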

How the data were processed

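RNA-seq of 18 organoid libraries was analysed. The deposited files give estimated counts and TPM per transcript, which the authors made with Salmon (version 0.13.1, per the submitters' processing notes). The notes also list hg38, but identifiers are mouse Ensembl, and values were read as mouse. The sources used here do not give strandedness, so overlapping antisense genes cannot be told apart. Per-gene sums of the estimated counts used GENCODE mouse release M21 (GRCm38) and were rounded. TPM served only for length offsets. The 1000 unmapped transcripts held 0.241% to 0.348% of reads.

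Counts were fitted with edgeR 4.0.16 (R 4.3.3) by the quasi-likelihood test, with TMM scaling, filterByExpr, 6 group means and 12 residual degrees of freedom. Contrasts were the averaged, HET and KO differences and the mean response. Benjamini-Hochberg adjustment ran over all genes at 0.05. CPM use TMM-scaled library sizes. The series text calls samples replicates without giving their origin, so p-values reflect only the spread among these samples, which may be technical. The test was checked on simulated data. The simulated libraries shared a mean per gene apart from the planted differences, so shifts of single libraries were not covered. Alternatives were DESeq2 1.42.0, its size factors, other filters, length offsets, a replicate block, mitochondrial adjustments, protein-coding genes, limma 3.58.1 and left-out libraries.

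The rule named the 12 top-ranked genes in each direction, Brca1, steroid receptors, 3 members per list by p, the 6 largest rises and 6 largest falls of the mean response (at least 5 CPM in a group, without unnamed clone-like symbols), and DESeq2 calls. Adm, Slc2a1, Sprr1a and Krtdap were named after their values were seen. Some genes that the rule named are not reported here. Members and lists were chosen with earlier results of these data known.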

Additional observations from a re-analysis of the deposited data

How the results depend on the processing

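The 0 calls of the averaged difference became 13 with DESeq2, 1 with DESeq2 size factors in edgeR (Smoc2, edgeR adjusted p = 0.0475), 6 with the mitochondrial share as covariate (Smoc2, Kcnf1, Ctsf, Plac8, Adamts9 and Txndc16) and 1 without the 3 smallest libraries (Plac8). The HET-labelled difference gave 6 with DESeq2 and 2 with the covariate, and the KO-labelled one 6, 3 and, without the 3 libraries, 1. The mean response held 1163 genes with DESeq2 and 3252 with the covariate. Leaving out single libraries gave 0 calls of each difference in every case, with 413 to 692 genes at an unadjusted p under 0.05 for the averaged one, and 523 to 773 genes for the mean response. With a replicate block the averaged and the HET-labelled difference each gave 1 call, Slc28a3 (1.02 and 1.12, edgeR adjusted p = 0.00978 and 0.0173). For 12 of 18 libraries the best correlation was with a library of the same number, a hint of pairing from the data. Only 17 of 45 same-numbered pairs reached r over 0.1 (-0.519 to 0.69, median 0.035). Among pairs with different numbers, 23 of 90 did (-0.633 to 0.481, median -0.022). The labels do not say what a number marks, so the numbers were not taken to pair samples. Without the 3 smallest libraries signs turned for Creb5 (-0.09), Pecam1 (-0.22), mt-Nd3 (-0.80), mt-Atp6 (-1.63), mt-Nd2 (-0.89) and Cd68 (-0.08). Without replicate 1 of every group they turned for Creb5 (-0.18), Tmem38b (-0.15), Pecam1 (-0.36), mt-Nd3 (-0.98), mt-Atp6 (-1.91), mt-Nd2 (-0.98) and Cnn1 (-0.06), and under the replicate block for mt-Atp6 (-0.05). With single libraries left out, differences crossed 0 for Tmem38b (-0.05 to 5.91), Vwf (-0.01 to 0.45), Syp (-1.79 to 0.03), Esr2 (-0.77 to 0.11) and Eno2 (-0.20 to 0.38). The cause was not tested. With 3 libraries a group, Ctsf, Cxcl14 and Scara3, at a few CPM in WT, had intervals over 1 log2 unit wide.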
